A study of Mus musculus with 7 samples.

Results

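The genes described here encode the proteins of the cytosolic ribosome. They were found by symbol: every probe set listed with a single gene symbol of the form Rpl or Rps followed by a number, with Rplp0 to Rplp2 and Rpsa added, and with Rps13, Rps20 and the S6 kinase genes left out. No level was required, and where a gene had several probe sets the brightest on average over the 7 arrays stood for it. This gave 65 of 22180 genes, 42 for the large and 23 for the small subunit, measured by 105 of 41345 probe sets. A further 23 symbols of this form in RefSeq had no single-symbol probe set and were not analysed here. They include Rps27a, Rpl13a and Rpl10.

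RNA came from mouse spleen monocytes with wild-type EPCR (endothelial protein C receptor), hybridised to Affymetrix Mouse Gene 2.0 ST arrays. HL7G, an antiphospholipid monoclonal antibody, was given at 400 ng/ml to cells of mouse 1 and of mouse 2 (2 arrays). R848, a TLR7 agonist, was given at 2 µg/ml, CpG B, a TLR9 agonist, at 2.5 µM, and poly I:C, a double-stranded RNA mimic, at 1 µg/ml, each to cells of mouse 1 (1 array each). Unstimulated cells came from both mice (2 arrays). Stimulation lasted 3 h. An IgG condition that the protocol names was not analysed here, and neither the way the monocytes were selected nor the culture time of the unstimulated cells is given in the sources used here. Values are log2 levels as deposited, so a difference of 1 is a 2-fold change.

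Each cytosolic ribosome carries a single copy of nearly all of these proteins, and cells make them in matched amounts. The mRNAs are among the most abundant in growing cells and begin with a C followed by a run of pyrimidines, the 5′ terminal oligopyrimidine (TOP) motif, through which mTORC1 signalling controls their translation. Many of the genes are hosts of small nucleolar RNAs in their introns, and nearly all have processed pseudogenes elsewhere in the genome. Probe sets with similar copies can therefore share signal, and this was not resolved here.

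The TOP letters were looked for at the annotated gene starts, since they are the sequence that defines this class of mRNA. RefSeq promoter windows (build GRCm38.p6, 250 bases before to 50 after each annotated start) matched 51 of the 65 genes, with 60 windows. A C at the start with an unbroken C or T run of at least 5 bases stood in 11 of the 60 windows (18.3%), against 2.51% of all 32851 windows. Shown are the 7 such genes that were higher in HL7G cells and 2 that did not pass the test, from 25 bases before the start to 15 bases of the gene, in the direction of transcription, with the run from the start in capitals.
Rpl14, chr9:120571492-120571531, + strand: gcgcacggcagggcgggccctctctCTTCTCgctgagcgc
Rpl28, chr7:4792940-4792979, + strand: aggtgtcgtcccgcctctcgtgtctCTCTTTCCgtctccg
Rps6, chr4:86857353-86857392, − strand: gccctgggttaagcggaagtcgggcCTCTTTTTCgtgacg
Rpl38, chr11:114668555-114668594, + strand: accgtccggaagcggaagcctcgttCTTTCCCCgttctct
Rpl35, chr2:39005117-39005156, − strand: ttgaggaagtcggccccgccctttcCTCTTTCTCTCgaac
Rpl15, chr14:18270972-18271011, − strand: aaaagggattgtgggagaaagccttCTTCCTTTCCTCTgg
Rps10, chr17:27635230-27635269, − strand: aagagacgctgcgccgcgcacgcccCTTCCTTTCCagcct
Rps27, not called, chr3:90213634-90213673, − strand: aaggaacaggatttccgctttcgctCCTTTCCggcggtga
Rps18, not called, chr17:33955651-33955690, − strand: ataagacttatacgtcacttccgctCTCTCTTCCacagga

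Rplp2 and Rpl32l also had the run but were too low to test and are not shown. The other 40 matched genes start on another letter or with a shorter run in this annotation, which says only that the run is not at that annotated base. The core letters of sites for ETS-family factors, CCGGAAG on either strand, stood in 38.3% of the ribosomal protein windows and in 8.86% of all windows. CTTCCG, which overlaps the reverse complement of those letters, stood in 56.7% and 16.9%. CTTTCC stood in 41.7% and 26.6%, and GCCATC, the core letters of YY1 sites, in 21.7% and 14.1%, each on either strand. Of the genes with the run at the start, 7 of 9 tested were called higher in HL7G cells with a median difference of 2.04. Of the matched genes without it 17 of 34 were, with a median of 0.90. Over all genes tested 16.3% were called higher, with a median of 0.06. These are counts in 1 annotation and were given no test, and none of these calls was left without the unstimulated array of mouse 1.

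The unstimulated array of mouse 1 stood farthest from the other arrays. Over the 11127 genes tested it correlated with the 5 stimulated arrays at 0.305 to 0.658, the unstimulated array of mouse 2 correlated with them at 0.540 to 0.833, and the stimulated arrays correlated among themselves at 0.831 to 0.928. The unstimulated arrays of both mice correlated at 0.849. Abundant transcripts outside the ribosome were low on the same arrays: Actb read 7.77 to 9.34 on the stimulated arrays, against 5.02 and 6.81 in unstimulated cells of mouse 1 and mouse 2. B2m read 9.23 to 10.3, against 5.74 and 7.90, whereas Gapdh read 7.73 to 8.32, against 9.13 and 8.75. What sets these arrays apart was not tested. The median probe set of an array read 4.40 to 4.54.

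In HL7G cells 31 of the 56 ribosomal protein genes tested were higher than in unstimulated cells and none was lower (limma, adjusted p under 0.05). Of all 11127 genes tested, 16.3% were higher and 1.89% lower. The median difference was 1.15 over the 56 genes and 0.06 over all genes tested. Above 0 were 50 of the 56 differences, against 5900 of 11127 over all genes. Testing required a level of 5 or more on some array, which 9 of the 65 genes did not reach. Some of the 56 reached it only on stimulated arrays. Among them were Rps29, which was called (3.90 and 4.47 in unstimulated cells), and Rpl22, Rpl7l1 and Rps14, which were not. For such genes the filter itself favours a difference above 0, and they are included in these counts. At an unadjusted p under 0.05 stood 41 of the 56, against 35.9% of all genes. The called differences ran from 0.85 to 2.96 with a median of 2.00, and their adjusted p-values from 0.0120 to 0.0467. At least 2-fold higher were 29 of the 56, against 16.8% of all genes. In RNA from a whole cell sample, a change in the share of cells of a type and a change in RNA per cell cannot be told apart.

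The count rests on the unstimulated array of mouse 1. Without it 0 of 56 were called, the lowest adjusted p among the 56 being 0.0877, and of all genes tested 2 were called. None of the calls given above by the letters at the start, or below for subunits or for other gene lists, is therefore left without that array. Without it 32 of the 56 had an unadjusted p under 0.05 (20.2% of all genes), 26 were at least 2-fold higher (14.4% of all genes), and the median difference was 0.88, against 0.10 over all genes. It also rests on the scaling: after cyclic loess 10 were called higher and 2 lower (Rpl5 and Rps18), with a median of 0.32, and when the tested genes were quantile normalized 18 were higher and 3 lower (Rpl5, Rps18 and Rpl39l), with a median of 0.54. These scalings moved the median of all genes to −0.08 and −0.12, so that the ribosomal protein median stood 0.40 and 0.67 above it, against 1.09 as deposited.

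**Figure D1:**
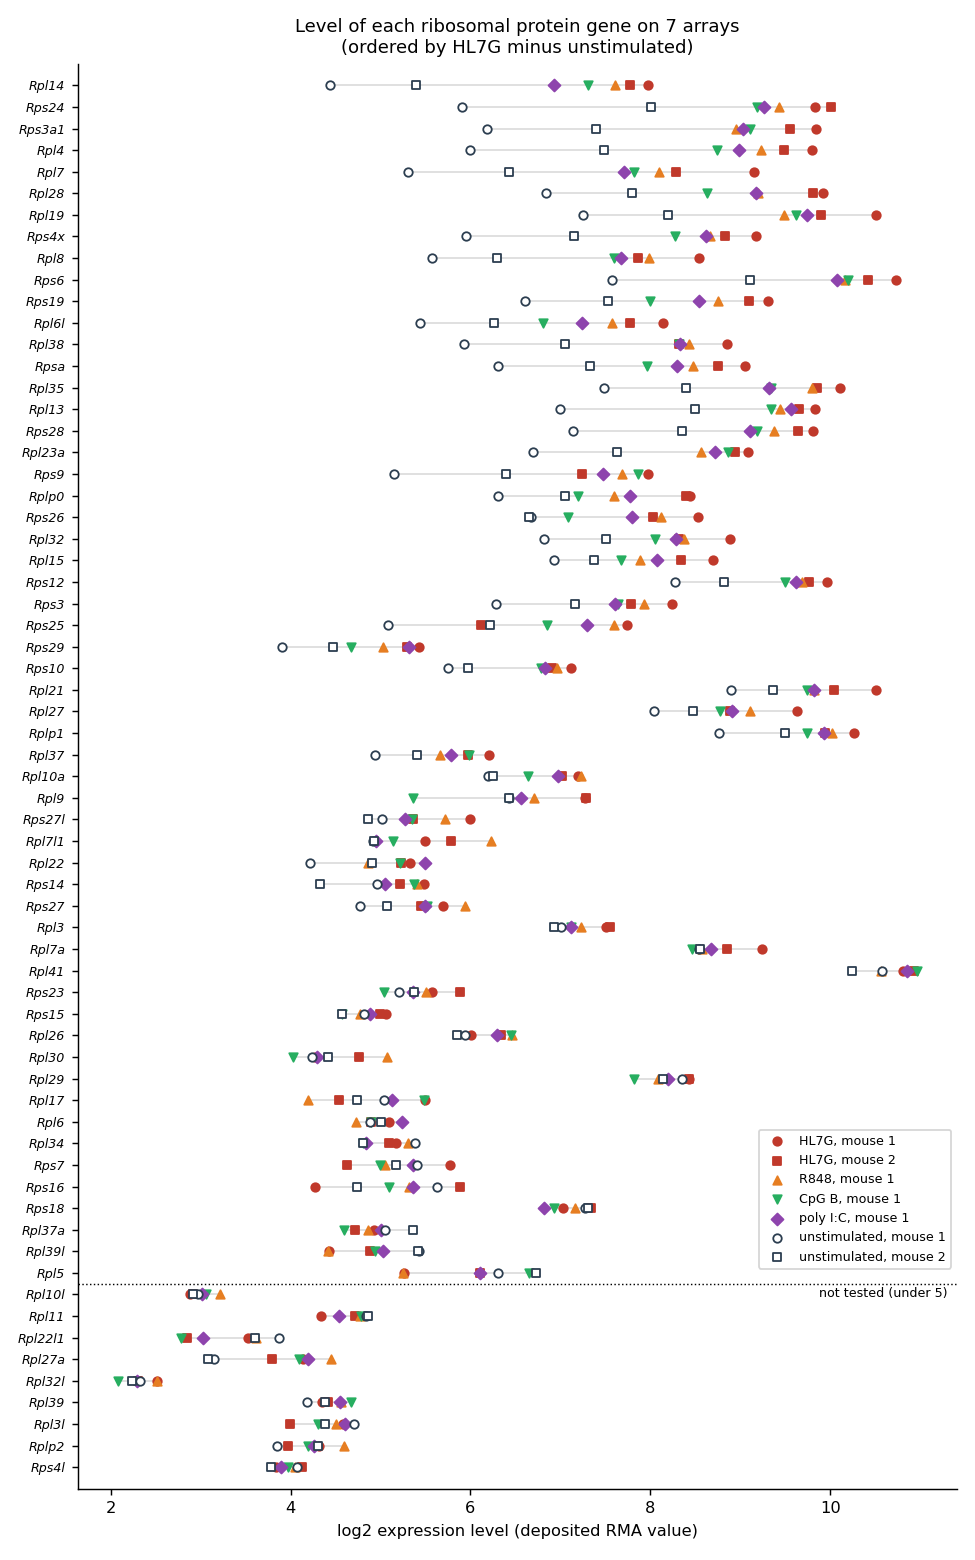
Deposited log2 level (x axis) of each of the 65 ribosomal protein genes (rows, ordered by HL7G minus unstimulated) on the 7 arrays, 1 symbol per array. In the rows down to Rpl10a, Rps25 apart, the open symbols of the unstimulated cells lie left of all 5 stimulated arrays, most often with mouse 1 farthest left; below the dotted line are the 9 genes under a level of 5 on all arrays, which were not tested.

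Both HL7G arrays lay above both unstimulated arrays for 45 of the 56 genes (40.5% of all genes), and all 5 stimulated arrays did so for 38 (27.4% of all genes). Against the unstimulated array of mouse 2 alone the counts were 46 (48.2% of all genes) and 39 (34.6% of all genes). All 5 stimulated arrays lay below both unstimulated arrays for 2 genes, Rpl37a and Rpl39l (15.3% of all genes). Over the 31 called genes the median level was 9.06 and 8.40 in HL7G cells of mouse 1 and mouse 2, 8.43 in R848, 7.997 in CpG B and 8.30 in poly I:C cells, against 6.30 and 7.33 in unstimulated cells. Over the 25 that were not called it was 5.58 and 5.78 in HL7G cells, 5.51, 5.37 and 5.36 in R848, CpG B and poly I:C cells, and 5.39 and 5.36 in unstimulated cells. The split into called and uncalled genes itself rests on the HL7G and unstimulated arrays, so these medians are a description.

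Of the large subunit genes 18 of 34 tested were higher in HL7G cells (16.3% of all genes), with a median difference over the 34 of 0.94 (0.06 over all genes). Rpl14, a large subunit protein with no counterpart in bacteria, read 7.97 and 7.78 in HL7G cells of mouse 1 and mouse 2, 7.60 in R848, 7.31 in CpG B and 6.93 in poly I:C cells, against 4.44 and 5.39 in unstimulated cells. Its stimulated arrays all lay more than 1 log2 unit above the unstimulated ones, and the difference of 2.96 ± 0.33 (SE from the fit, n = 2 arrays a group; adjusted p = 0.0120) is a 7.78-fold change. Rpl4, which lines the tunnel through which the new peptide leaves, read 9.80 and 9.49 in HL7G cells, 9.23 in R848, 8.74 in CpG B and 8.98 in poly I:C cells, against 5.99 and 7.49 in unstimulated cells. The groups again did not overlap (2.91 ± 0.46, adjusted p = 0.0133). Rpl7 read 9.15 and 8.28 in HL7G cells, 8.10, 7.82 and 7.71 in R848, CpG B and poly I:C cells, and 5.30 and 6.43 in unstimulated cells (2.85 ± 0.43). Here the HL7G array of mouse 1 stood 0.87 above that of mouse 2.

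Rpl28 read 9.92 and 9.81 in HL7G cells, 9.19, 8.62 and 9.17 in R848, CpG B and poly I:C cells, and 6.84 and 7.80 in unstimulated cells, so both HL7G arrays were above all other arrays (2.54 ± 0.33, adjusted p = 0.0120). Rpl19 read 10.51 and 9.90 in HL7G cells, 9.48, 9.62 and 9.75 with the agonists, and 7.25 and 8.19 in unstimulated cells (2.49 ± 0.37). Rpl8, which sits close to the catalytic centre, read 8.54 and 7.87 in HL7G cells, 7.98, 7.60 and 7.67 with the agonists, and 5.57 and 6.30 in unstimulated cells (2.27 ± 0.34). For Rpl8 the R848 array lay between the HL7G arrays, and no stimulated array overlapped the unstimulated ones. Rpl6l, which RefSeq lists as a pseudogene, read 8.14 and 7.78 in HL7G cells, 7.58, 6.81 and 7.24 with the agonists, and 5.44 and 6.26 in unstimulated cells (2.11 ± 0.32). Whether its probe set reads this copy or other Rpl6 sequences was not resolved. The probe set named Rpl6 lay between 4.73 and 5.23 on all 7 arrays, with a difference of 0.05 ± 0.22.

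The smallest called differences of the large subunit were 0.85 for Rpl9, 0.89 for Rpl10a and 0.91 for Rpl37. Rpl9 read 7.28 and 7.28 in HL7G cells, 6.70 in R848, 5.36 in CpG B and 6.56 in poly I:C cells, against 6.42 and 6.43 in unstimulated cells. The CpG B array was thus its lowest, and its HL7G difference was alike in both mice. The call of Rpl9 was lost in the fit blocked on the mouse (adjusted p = 0.0660).

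Of the small subunit genes 13 of 22 tested were higher in HL7G cells (16.3% of all genes), with a median difference over the 22 of 1.28 (0.06 over all genes). Rps24, mutated in some people with the inherited red cell aplasia Diamond-Blackfan anaemia, read 9.82 and 10.01 in HL7G cells of mouse 1 and mouse 2, 9.43 in R848, 9.19 in CpG B and 9.26 in poly I:C cells, against 5.91 and 8.01 in unstimulated cells. The unstimulated arrays themselves lay 2.10 apart, and the difference of 2.96 ± 0.60 had an adjusted p of 0.0211. Rps3a1, which lies near the mRNA exit where the initiation factor eIF3 binds, read 9.84 and 9.55 in HL7G cells, 8.95, 9.10 and 9.03 with R848, CpG B and poly I:C, and 6.18 and 7.39 in unstimulated cells (2.91 ± 0.39, adjusted p = 0.0120). Its 3 agonist arrays lay close together and below both HL7G arrays.

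Rps4x, the X-linked copy of Rps4, read 9.17 and 8.83 in HL7G cells, 8.67, 8.27 and 8.62 with the agonists, and 5.95 and 7.16 in unstimulated cells (2.45 ± 0.40). Rps6, the substrate from which the S6 kinases take their name, read 10.73 and 10.42 in HL7G cells, 10.16, 10.19 and 10.08 with the agonists, and 7.57 and 9.11 in unstimulated cells. It is among the genes with the TOP letters at the start shown above, and its difference was 2.24 ± 0.47 (adjusted p = 0.0227). After loess the Rps6 difference was 0.71 and its call was lost (adjusted p = 0.0701). Rps19, the gene most often mutated in human Diamond-Blackfan anaemia, read 9.31 and 9.10 in HL7G cells, 8.75, 7.997 and 8.54 with the agonists, and 6.61 and 7.53 in unstimulated cells (2.13 ± 0.33). Its CpG B array was the closest of the stimulated arrays to the unstimulated ones. Rps3, which lines the mRNA entry channel and also has a role in DNA repair, read 8.24 and 7.78 in HL7G cells, 7.93, 7.64 and 7.61 with the agonists, and 6.29 and 7.17 in unstimulated cells. Its call (1.28 ± 0.34, adjusted p = 0.0414) was not kept after loess, where the difference was −0.09.

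Rps26, at the mRNA exit, read 8.53 and 8.03 in HL7G cells, 8.11, 7.09 and 7.79 with the agonists, and 6.67 and 6.65 in unstimulated cells. As for Rpl9 and Rpl10a, its unstimulated arrays hardly differed, and its difference of 1.62 ± 0.25 had an adjusted p of 0.0124. Rps25, needed for translation from some viral internal ribosome entry sites, had the opposite pattern between mice: it read 7.74 and 6.12 in HL7G cells, 7.60, 6.85 and 7.30 with the agonists, and 5.08 and 6.22 in unstimulated cells. The HL7G array of mouse 2 fell within the unstimulated range, and the difference of 1.28 ± 0.57 did not pass (adjusted p = 0.157). Rps26 and Rps25 were singled out after their values were seen.

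Rpsa, a small subunit protein also known as the laminin receptor, read 9.06 and 8.75 in HL7G cells, 8.47, 7.96 and 8.30 with the agonists, and 6.30 and 7.33 in unstimulated cells. No stimulated array overlapped the unstimulated ones (2.09 ± 0.35, adjusted p = 0.0141). Of the stalk proteins that recruit the translation factors, Rplp0, the anchor of the stalk, read 8.44 and 8.40 in HL7G cells, 7.59, 7.20 and 7.77 with the agonists, and 6.31 and 7.05 in unstimulated cells (1.74 ± 0.29, adjusted p = 0.0139). Both HL7G arrays stood above the agonist arrays. Rplp1 read 10.27 and 9.94 in HL7G cells, 10.02, 9.74 and 9.93 with the agonists, and 8.76 and 9.50 in unstimulated cells. Its groups did not overlap, but the difference of 0.97 ± 0.30 did not pass (adjusted p = 0.0643), and it was −0.55 after loess and −0.22 after quantile normalization. Rplp2, the third stalk protein, lay between 3.85 and 4.59 and was not tested.

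The 25 tested genes that were not called had differences from −0.84 to 1.28, with 19 above and 6 below 0. Several of them were bright on every array. Rpl41, the smallest ribosomal protein, read 10.81 and 10.93 in HL7G cells, 10.56, 10.97 and 10.85 with the agonists, and 10.57 and 10.24 in unstimulated cells (0.46 ± 0.23, adjusted p = 0.189). Rpl29 read 8.43 and 8.43 in HL7G cells, 8.09, 7.82 and 8.19 with the agonists, and 8.35 and 8.14 in unstimulated cells (0.19 ± 0.21, adjusted p = 0.540). Both HL7G arrays of Rpl29 lay just above both unstimulated arrays, while the agonist and unstimulated arrays overlapped. Loess and quantile normalization turned the Rpl29 difference to −1.36 and −1.05. Rpl7a, bright as well, had a difference of 0.50 ± 0.23 (adjusted p = 0.170), and Rpl27 one of 1.00 ± 0.31 (adjusted p = 0.0658). Rpl41, Rpl29, Rpl7a and Rpl27 were named after their values were seen.

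The lowest difference belonged to Rpl5, which with Rpl11 and the 5S rRNA binds MDM2 and so stabilises p53. Rpl5 read 5.26 and 6.10 in HL7G cells, 5.24 in R848, 6.65 in CpG B and 6.11 in poly I:C cells, against 6.31 and 6.73 in unstimulated cells. Its CpG B array lay between the unstimulated ones. The difference of −0.84 ± 0.33 did not pass as deposited (adjusted p = 0.115), but it did after loess (−1.35, adjusted p = 0.0359), after quantile normalization (−1.32, adjusted p = 0.0226) and without the HL7G array of mouse 2 (−1.26, adjusted p = 0.0125). Rpl11 lay between 4.34 and 4.86 and was not tested. Rpl26, which in human cells binds the p53 mRNA, had a difference of 0.28 ± 0.23 that turned to −0.32 after loess. The other members at the low end were Rpl39l at −0.77 ± 0.24, Rpl37a at −0.38 ± 0.23, Rps18 at −0.11 ± 0.22, Rps16 at −0.11 ± 0.53 and Rps7 at −0.09 ± 0.38. Rps18, shown above with its TOP letters, read 7.03 and 7.34 in HL7G cells, 7.17, 6.93 and 6.81 with the agonists, and 7.27 and 7.31 in unstimulated cells. Its HL7G and unstimulated arrays overlapped, and all 3 agonist arrays lay below both unstimulated ones.

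The 9 genes below the level required for testing were Rpl10l (2.88 to 3.21), Rpl22l1 (2.78 to 3.87), Rpl27a (3.08 to 4.45), Rpl32l (2.08 to 2.52), Rpl39 (4.18 to 4.68), Rpl3l (3.997 to 4.70), Rps4l (3.79 to 4.12, a transcribed pseudogene in RefSeq), Rplp2 and Rpl11. Most of the paralogs that replace a standard protein in particular tissues, such as Rpl10l in testis and Rpl3l in striated muscle, are in this list: 3 of 7 paralogs were tested and 0 were called. Rpl3 had a difference of 0.56 ± 0.21 (adjusted p = 0.104), with Rpl3l not tested. Rpl7 was called on its brightest probe set, as given above, while its dimmer probe set gave 0.11 and was not called. Its paralog Rpl7l1 read 5.50 and 5.78 in HL7G cells, 6.22, 5.14 and 4.95 with the agonists, and 4.92 and 4.93 in unstimulated cells (0.72 ± 0.22, adjusted p = 0.0643). For Rpl7l1 the R848 array was the highest. Rpl22, known for its role in T cell development, had a difference of 0.72 ± 0.28 (adjusted p = 0.114), and Rps27 and the p53 target Rps27l had 0.65 ± 0.23 and 0.74 ± 0.27 (adjusted p = 0.0925 and 0.0985). Rpl39l, the testis paralog of Rpl39, read 4.43 and 4.89 in HL7G cells, 4.41, 4.94 and 5.03 with the agonists, and 5.43 and 5.41 in unstimulated cells. All its stimulated arrays lay below the unstimulated ones (adjusted p = 0.0682).

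Differences ran the same way in both mice for most genes and were larger in mouse 1. HL7G cells were higher than unstimulated cells in both mice for 46 of the 56 genes and at least 2-fold higher in both for 20. Over all 11127 genes tested these counts were 4907 and 957. The median difference was 1.56 in mouse 1 and 0.83 in mouse 2, against 0.02 and 0.12 over all genes tested. Of the 31 called genes 30 had the larger difference in mouse 1. The unstimulated array of mouse 2 lay above that of mouse 1 for 43 of the 56 genes, against 50.1% of all genes, with a median gap of 0.47, and for 30 of the 31 called genes, with a median gap of 0.92. Among the HL7G arrays mouse 1 was the higher for 44 of the 56 genes, with a median gap of 0.21 (mouse 2 minus mouse 1, −0.21). The share of all genes for which it was the higher was not counted. The unstimulated array of mouse 1 was the lowest of the 7 for 35 of the 56 genes (27.5% of all genes), and the HL7G array of mouse 1 was the highest for 38 (30.5% of all genes).

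**Figure D2:**
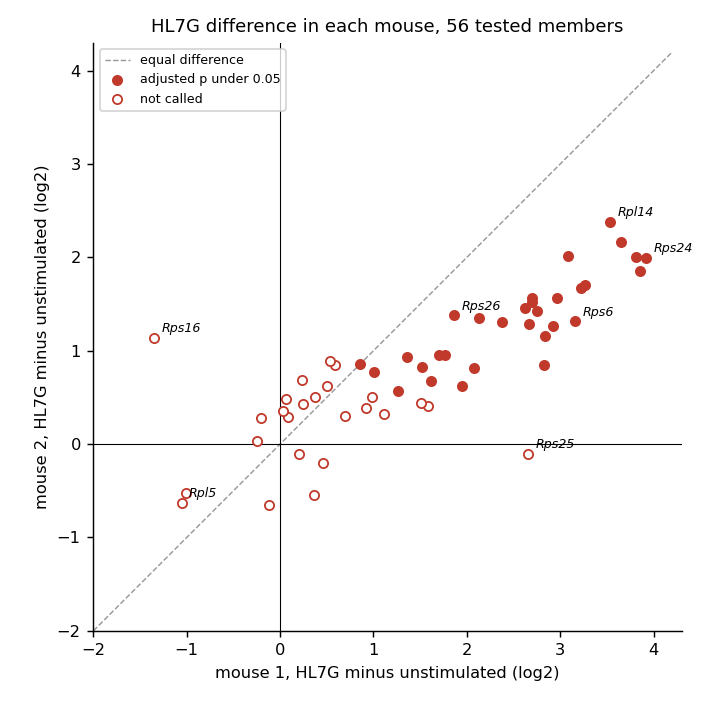
HL7G minus unstimulated in mouse 1 (x axis) and in mouse 2 (y axis), in log2 units, for the 56 tested ribosomal protein genes; filled points passed the test over both mice, and the dashed line marks equal differences. Called genes lie above 0 in both mice and, but for 1, below the dashed line; Rps25 and Rps16 are far from it.

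The share of calls is given next by brightness. The mean level takes in the stimulated arrays, so a gene that is higher on them also has a higher mean (Rpl14 had a mean of 6.77, and of 4.91 on the unstimulated arrays alone), and these counts are a description. With a mean log2 level of at least 6, 29 of 39 ribosomal protein genes were called higher, against 40.5% of the 1337 genes of that brightness. At a mean of at least 7 the count was 25 of 32, against 43.9% of 319 genes, and at a mean of at least 8 it was 16 of 21, against 31.9% of 144 genes. Of the 17 tested genes with a mean under 6, 2 were called (Rps29 and Rpl37), against 16.3% of all genes tested at any brightness. The count of these dimmer genes was thus not above that share. Their median difference was 0.34, against 0.06 over all genes tested.

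**Figure D3:**
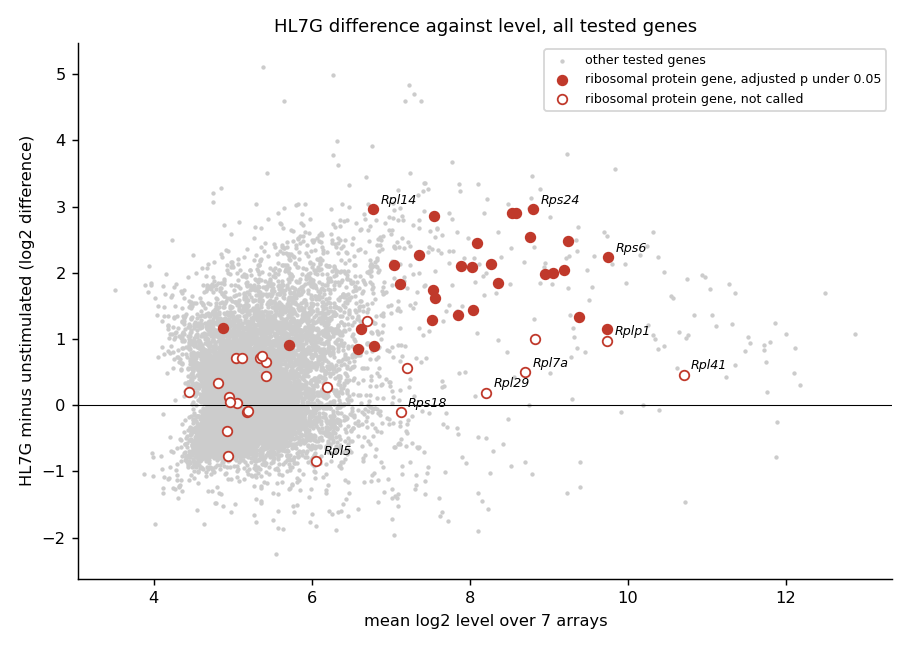
HL7G minus unstimulated (y axis, log2 difference) against the mean log2 level over 7 arrays (x axis) for all 11127 tested genes (grey) and the 56 ribosomal protein genes (red; filled where adjusted p was under 0.05). Called ribosomal protein genes spread over levels from about that of Rps29 to that of Rps6. Rpl41, Rpl29, Rpl7a and Rps18 are bright genes that were not called, with differences from −0.11 (Rps18) to 0.50 (Rpl7a).

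Probe sets of 1 gene often gave different answers. Of the 24 genes with several probe sets, all probe sets were called for 3, some for 15 and none for 6. Probe sets under a level of 5 on all arrays were not tested and count here as not called. For Rpl9, Rpl35, Rps24, Rps26, Rps28 and Rps3a1, counted among the 15, every tested probe set was called. The differences of 15 genes, untested probe sets included, spread over at least 1 log2 unit between probe sets. For Rpl19 the brightest probe set gave 2.49 and the other −0.19. The dimmer Rpl19 probe set read 5.49 and 5.63 in HL7G cells, 5.68, 5.70 and 5.86 with the agonists, and 5.66 and 5.83 in unstimulated cells, nearly flat over the 7 arrays. Rpl7 gave 2.85 and 0.11, Rpl13 2.00 and 0.28, Rps19 2.13 and −0.03, and Rplp0 1.74 and 0.02. Rpl41 showed another order: its 5 probe sets gave 0.46, 1.53, 2.37, 2.58 and 0.21 from the brightest to the dimmest, of which the middle 3 were called. Rps12 had 6 probe sets with identical values, and Rpl23a and Rps19 also had probe sets that matched exactly, so these are not separate measurements. Tested probe set by probe set, 46 of 90 were higher and 0 lower, against 16.3% higher of all probe sets tested. This count includes each of the probe sets with identical values, all of which were called, and so counts some measurements more than once. With the dimmest probe set of each gene, tested only where that probe set reached a level of 5, 18 genes were called in place of 31. Called genes whose dimmest probe set stayed under 5, such as Rps24 and Rps26, left that comparison, so it tested fewer genes. It was added after the values were seen.

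**Figure D4:**
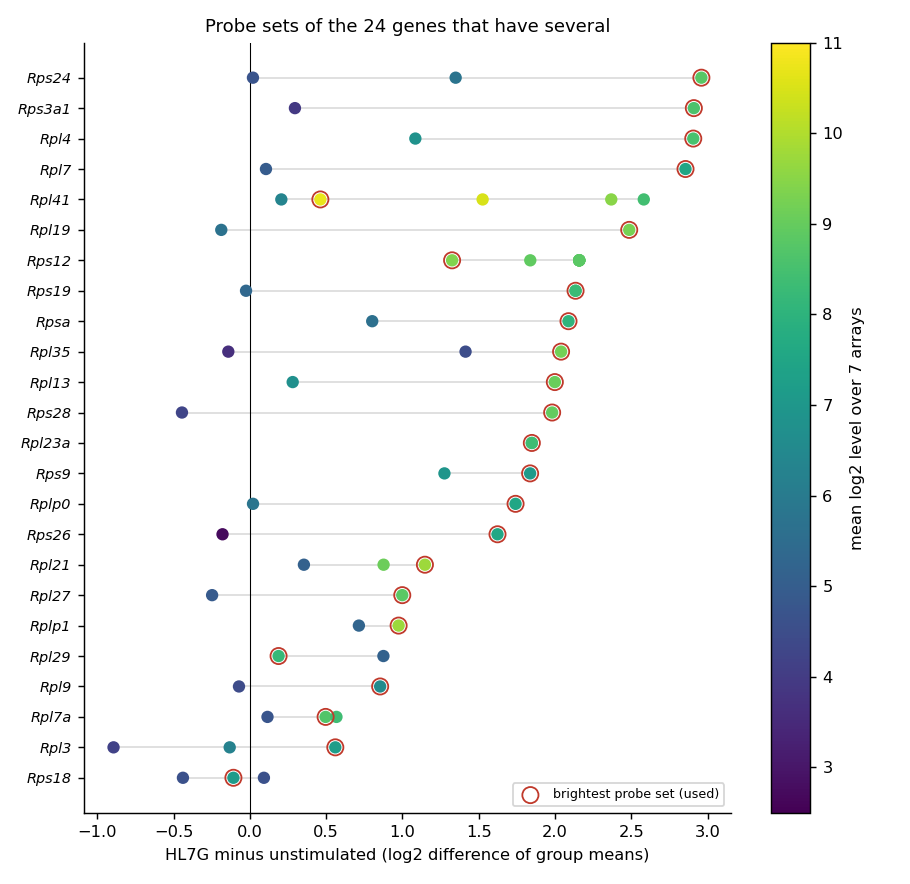
HL7G minus unstimulated (x axis, log2 difference of group means) of each probe set of the 24 ribosomal protein genes that have several (rows), coloured by mean log2 level; a ring marks the brightest probe set, which stood for the gene. Dim probe sets (dark) lie near 0 in most rows, and in the Rpl41 row the brightest lies left of 3 others.

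RefSeq shows a small nucleolar RNA gene inside the span of 17 of the tested genes. Of these, 10 were higher in HL7G cells, with a median difference of 1.15, and of the other 39 tested, 21 were higher, with a median of 1.15. Of all genes tested 16.3% were higher, with a median of 0.06. With the agonists the median difference of the hosts against that of the others was 0.75 against 1.002 for R848, 0.81 against 0.59 for CpG B and 0.69 against 0.93 for poly I:C. Over all genes tested the agonist medians were 0.09, 0.03 and 0.02. The difference between hosts and others was not tested.

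The agonists, with 1 array each, were set against the same unstimulated arrays as HL7G, so the comparisons are not independent. No gene of the 11127 passed limma's adjusted test for R848, CpG B or poly I:C. At an unadjusted p under 0.05 stood 34 of the 56 ribosomal protein genes for R848 (22.9% of all genes), 22 for CpG B (12.3%) and 28 for poly I:C (9.47%). Median differences were 0.96 for R848, 0.61 for CpG B and 0.90 for poly I:C, against 0.09, 0.03 and 0.02 over all genes. At least 2-fold higher were 28 genes with R848 (12.1% of all genes), 18 with CpG B (8.06%) and 25 with poly I:C (6.23%), and at least 2-fold lower were 2, 1 and 0.

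With R848 the largest differences were those of Rpl14 (2.69), Rpl4 (2.49), Rps24 (2.47) and Rpl7 (2.24), and the smallest those of Rpl37a (−0.34), Rpl17 (−0.70), Rpl39l (−1.01) and Rpl5 (−1.27). With CpG B they were Rpl14 (2.39), Rps3a1 (2.32), Rps24 (2.23) and Rps9 (2.09) at the upper end, and Rpl29 (−0.42), Rpl39l (−0.48), Rpl37a (−0.61) and Rpl9 (−1.06) at the lower. With poly I:C they were Rps24 (2.31), Rps3a1 (2.24), Rpl4 (2.24) and Rps4x (2.06), and Rpl34 (−0.26), Rpl39l (−0.40), Rpl5 (−0.41) and Rps18 (−0.48). Differences from the unstimulated cells after each agonist have no replicate check, and leaving out the unstimulated array of mouse 2 or an HL7G array changed their counts from 0 to between 1 and 25.

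**Figure D5:**
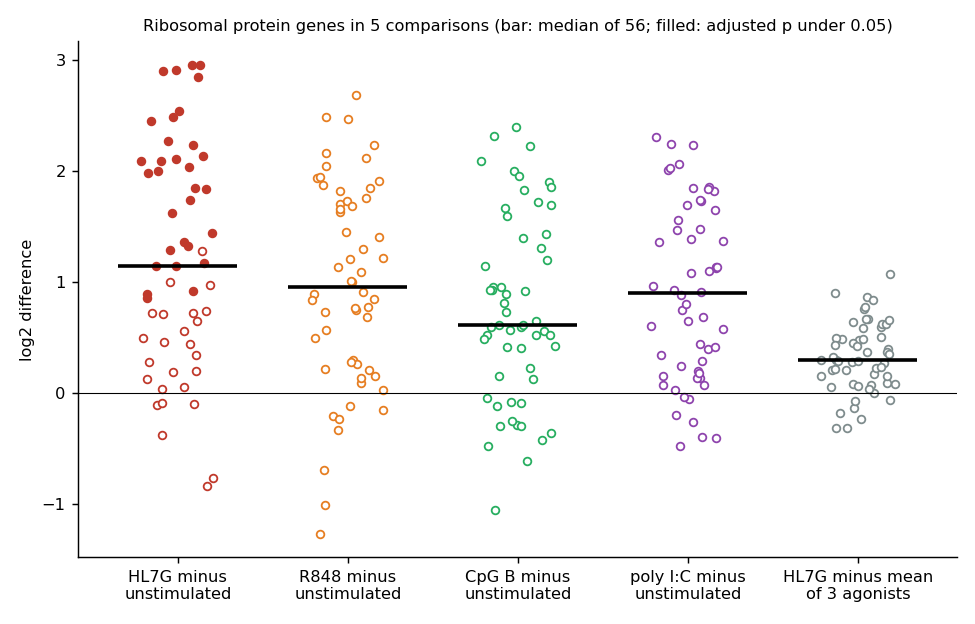
Log2 difference (y axis) of the 56 tested ribosomal protein genes in 5 comparisons (columns; 1 point per gene, spread sideways for clarity); bars are medians and filled points passed the adjusted test. The first 4 columns share the unstimulated arrays and have medians of 1.15, 0.96, 0.61 and 0.90; the fifth, HL7G minus the mean of the agonists, has a median of 0.29 and no filled point.

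The difference between HL7G and the mean of the 3 agonists takes no value from the unstimulated arrays, though its errors and p-values take in the spread between them through the shared fit. In limma 0 of the 56 genes passed, 7 had an unadjusted p under 0.05 (10.8% of all genes), and differences ran from −0.32 to 1.07 with a median of 0.29, against 0.05 over all genes. Above 0 were 48 of 56, against 6232 of 11127 over all genes. Rpl9 (1.07 ± 0.19), the only gene at least 2-fold higher (1.2% of all genes were), Rplp0 (0.90 ± 0.26), Rpl28 (0.87 ± 0.30) and Rpl7 (0.84 ± 0.40) were at the upper end, with adjusted p-values from 0.338 to 0.506. Rps16 (−0.18), Rpl26 (−0.23), Rps25 (−0.32) and Rpl5 (−0.32) were at the lower end. Within mouse 1 the HL7G array was above all 3 agonist arrays for 42 of the 56 genes (39.4% of all genes), and both HL7G arrays were above all 3 for 26 (19.2% of all genes).

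Other genes of ribosome production were set beside these, with 16.3% of all genes tested called higher and an all-gene median of 0.06 as the background. Fau, which encodes a ribosomal protein outside the naming pattern, read 9.26 and 8.41 in HL7G cells, 8.23, 7.84 and 8.64 with the agonists, and 5.94 and 6.50 in unstimulated cells (2.62 ± 0.34, adjusted p = 0.0120). Rps13 and Rps20, left out by the rule, had larger differences of 4.60 ± 0.30 and 3.63 ± 0.57. Their unstimulated readings were low, at 2.40 and 3.22 for Rps13 and 3.11 and 4.91 for Rps20. Both genes thus reached the level of 5 needed for testing only on stimulated arrays. Of 15 other tested genes whose mRNAs are known to carry a TOP motif, most of them translation factors, 12 were higher and 0 lower, with a median of 2.24, from Eef1b2 at 2.93 and Eif3f at 2.80 to Vim, an intermediate filament protein, at 0.93 and Eef1g at 0.81. Eef1b2 and Eif3f were called and Vim and Eef1g were not. Of 48 tested genes of ribosome assembly and RNA polymerase I, 9 were higher and 0 lower, with a median of 0.99. Npm1, a nucleolar chaperone, was at 2.61 and Wdr43 at 2.49, both called, while Imp4 at 0.18 and Ddx18 at −0.52 were not. Of 48 tested mitochondrial ribosomal protein genes, 3 were higher and 0 lower, with a median of 0.38. Mrpl24 at 1.98 and Mrpl32 at 1.34 were called, and Mrpl14 at −0.38 and Mrpl10 at −0.68 were not. Their median level was 5.53 and 5.32 in HL7G cells of mouse 1 and mouse 2, 5.35, 5.22 and 5.20 with the agonists, and 5.09 and 5.08 in unstimulated cells. The larger median of the cytosolic genes was not tested against theirs. Some called genes of these lists, among them Eif3e and Wdr43, also reached the level of 5 only on stimulated arrays. Mrpl32 reached it only on the HL7G array of mouse 1 (5.39), and Mrpl18, also called, only on that of mouse 2 (5.01). For such genes the filter itself favours a difference above 0.

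Markers of B and T cells were higher in the HL7G comparison, in which 16.3% of all genes were called higher. Of the B cell markers 7 of 8 tested were higher in HL7G cells, and the mean level of the list was 6.16 and 6.12 in HL7G cells of mouse 1 and mouse 2, 5.74 in R848, 5.44 in CpG B and 5.63 in poly I:C cells, against 4.91 and 5.06 in unstimulated cells. Ms4a1, which encodes CD20, had a difference of 1.75 and Cd79a, of the B cell receptor, of 1.33. Ms4a1 and Fcer2a, and Cd3g among the T cell markers, were called but reached the level of 5 only on stimulated arrays. For such markers the filter itself favours a difference above 0. Of the T cell markers 5 of 9 tested were higher, and their mean level was 6.12 and 6.11 in HL7G cells, 5.53, 5.47 and 5.41 with the agonists, and 5.11 and 5.27 in unstimulated cells. Of the monocyte markers 1 of 8 tested was higher (Lyz2), with a mean level of 5.19 and 5.16 in HL7G cells, 5.07, 5.05 and 5.001 with the agonists, and 4.91 and 5.06 in unstimulated cells. Of the 8 monocyte differences 6 lay above 0, while Cx3cr1 (−0.82) and Treml4 (−0.09) lay below 0 and were not called. Ly6c2 and Ccr2, which define classical monocytes, were under 5 on every array. Lists for NK cells, neutrophils, erythroid cells, platelets and dendritic cells of both kinds gave no call. In that order their median differences were −0.53, 0.19, −0.15, −0.35, 0.67 (plasmacytoid) and 0.13 (conventional), over 2 or 3 tested genes each. The lists for red pulp macrophages and for endothelial and stromal cells gave 1 call each, of 2 and 4 tested. The part that other cells had in the ribosomal protein differences was not tested.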

How the data were processed

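RNA of spleen monocytes was measured on 7 arrays. The values used are the log2 level of each probe set in the authors' deposited table; per the submitters' processing notes they were made with RMA in Affymetrix software (Expression Console, Transcriptome Analysis Console; versions not given). Probe sets were named through GEO's platform annotation: of 41345, 23521 had 1 gene symbol, 1814 several and 16010 none. Probe positions were not used here.

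limma 3.58.1 (R 4.3.3) fitted 5 groups to the 7 arrays at once (2 residual and 4.94 prior degrees of freedom), with 2-sided tests and Benjamini-Hochberg adjustment over 11127 single-symbol genes that reached a level of 5 on some array; called means an adjusted p under 0.05. The brightest probe set stood for a gene. Errors beside differences are standard errors of this fit. The agonists' single arrays borrow their spread from the other groups. All p-values rest on 2 mice, and the small number of arrays sets the precision. The fit was tested on simulated data.

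Mouse numbers in the labels pair the arrays, since equal numbers are the same animal; the mouse 2 minus mouse 1 differences of HL7G and unstimulated cells correlated at −0.146 over genes, and the block left 1 residual degree of freedom. Named were the 12 largest and 6 smallest HL7G differences, the 4 largest and 4 smallest of each other comparison, the 2 largest and 2 smallest of each comparison list, and genes with known roles and paralog pairs. Members, lists and names were chosen with earlier results of these data known. Marker lists were compared as counts and mean levels. Other scalings, filters, probe set rules, a variance trend, the mouse block and leaving out each replicated array were tried. Promoter sequences are RefSeq's.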

Additional observations from a re-analysis of the deposited data

How the results depend on the processing

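In HL7G against unstimulated cells the count of 31 called ribosomal protein genes was 12 after loess and 18 with the dimmest probe set (a choice made after seeing the data), and leaving out 1 array gave 0 to 37; counted in either direction, it lay within 1.5 times of 31 after quantile normalization (21, of which 18 higher and 3 lower, so that the higher calls alone fell short), median centring (32), no level filter (32), a mean level of at least 6 (24), the mean of probe sets (28), a variance trend (22, of which 21 higher and 1 lower) and the mouse as a block (28). The mouse block kept 28 of the 31 calls and added none. The median difference of 1.15 was 0.32 after loess, 0.54 after quantile normalization, 1.74 at a mean level of at least 6 and 0.71 with the dimmest probe set, and leaving out 1 array gave 0.88 to 1.36. For R848 the median was 0.15 after loess, 1.45 at a mean level of at least 6 and 0.53 with the dimmest probe set, and the count of 0 became 2 after quantile normalization, 1 with a variance trend and 0 to 25 without 1 array. For CpG B the median was 0.0445 after loess, and the count became 1 after quantile normalization and 0 to 7 without 1 array. For poly I:C the median was 0.17 after loess, 1.36 at a mean level of at least 6 and 0.36 with the dimmest probe set, and the count became 0 to 7 without 1 array. HL7G against the agonists gave 0 calls under every setting run.

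Over 34 named tested genes 348 values under other settings kept their side, 43 lost and 13 gained a call, and 25 changed sign. The sign changes were Rpl26 (loess −0.32, quantile −0.19), Rpl29 (−1.36, −1.05), Rplp1 (−0.55, −0.22), Rps3 (loess −0.0891) and Rpl3 (loess −0.66, quantile −0.39, mean of probe sets −0.16, dimmest −0.89), Rpl17 and Rpl34 after quantile normalization (−0.0162 and −0.0821), Rps7 after median centring (0.00796), and Rpl19 and Rps19 with the dimmest probe set (−0.19 and −0.0252). Without 1 array the ranges that crossed 0 were −0.35 to 0.60 for Rpl17, −0.25 to 0.32 for Rpl34 (including −0.00633), −0.91 to 0.70 for Rps16, −0.26 to 0.0483 for Rps18 and −0.67 to 0.48 for Rps7. The cause of these changes was not tested. Signal over background could not be judged from the deposited values.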
